A study of Callithrix jacchus with 3 samples.

Results

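The misc_RNA entries of testis RNA-seq from adult Callithrix jacchus, the common marmoset, are small non-coding RNAs that the deposited table sets apart from protein-coding, snRNA, snoRNA and other entries. They were taken as all rows whose annotation is misc_RNA, which gave 265 of 18365 entries. The RNA was from whole testis of wild-type animals aged 41 and 51 months. The labels give 2 replicates, and the table holds 1 column of RPKM (read number per kilobase of transcript, scaled to the mapped reads of the library). No value therefore has a replicate error, no p-value was computed, and the ages could not be compared. The table lists values above 0 and spans of 100 bases or more, so a copy without an entry is not shown to be silent. The series also holds total small RNA of 1 animal aged 41 months and small RNA recovered with MARWI, a marmoset PIWI protein, which were not used here.

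The common names in the table fall into 7 RNAs. RNase MRP is the RNA of a nucleolar and mitochondrial ribonuclease that takes part in ribosomal RNA processing, and RNaseP_nuc is the nuclear RNase P RNA, which trims the 5′ ends of tRNA precursors. Vault RNA belongs to the vault, a large cytoplasmic particle, and Y RNAs bind the Ro protein. Telomerase-vert is the template RNA of telomerase. SRP_euk_arch is the 7SL RNA of the signal recognition particle, which brings ribosomes that make secreted and membrane proteins to the endoplasmic reticulum, and 7SK holds the elongation factor P-TEFb in an inactive form. In mammals all of these except telomerase RNA are transcribed by RNA polymerase III, and the genomes of primates carry many copies of 7SL, 7SK and Y RNA that arose by retrotransposition. The Alu repeat itself derives from 7SL.

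Most misc_RNA entries were low, and a few were among the highest of the table. The 7SL name had 213 entries (80.4% of the members) and 7SK had 45. Y RNA had 3 entries, and RNase MRP, RNase P, vault and telomerase RNA had 1 each. The vault and Y RNA spans, 101 and 111 to 114 bases, lie close to the lower limit of 100 bases. Copies of these names under that limit would not be listed. The median over the 265 entries was 0.518 RPKM, against 1.79 RPKM over the other 18100 entries. At 1 RPKM or more were 71 misc_RNA entries, or 26.8% (exact 95% interval 21.6% to 32.6%), where 59.8% of all entries reached that level. The interval treats entries as independent draws and holds no error between animals. Protein-coding entries reached 1 RPKM in 60.6% of cases and pseudogene entries in 41.0%, whereas snRNA and snoRNA entries did so in 99.1% and 98.1%.

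**Figure D1:**
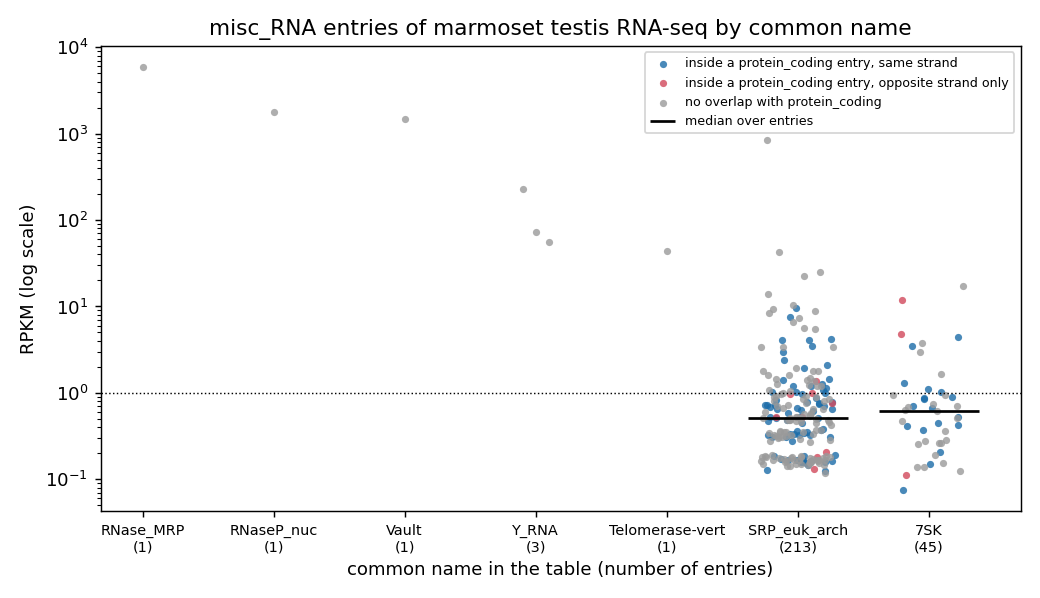
RPKM of each misc_RNA entry on a log axis, by the common name in the table, with the number of entries in brackets. Points are entries, coloured by their overlap with protein_coding entries, black lines are medians, and the dotted line is 1 RPKM. All 7 entries of the names with 1 to 3 copies lie at 43.8 RPKM or more, while the medians of SRP_euk_arch and 7SK are 0.506 and 0.609 RPKM.

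**Figure D2:**
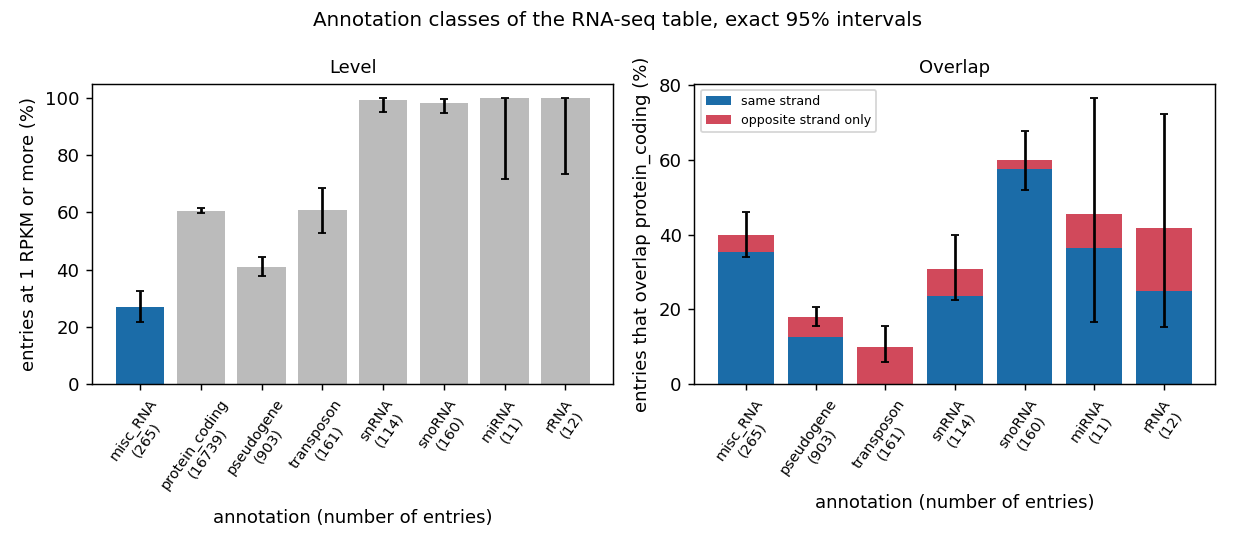
Left, the percentage of entries at 1 RPKM or more in each annotation class, with the number of entries in brackets. Right, the percentage of entries that share span with a protein_coding entry, split by strand, and bars in both panels have exact 95% intervals over entries. misc_RNA entries are at 26.8% on the left and 40.0% on the right.

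The summed RPKM of the misc_RNA entries was 10812, or 0.619% of that of the table. In this sum the snRNA entries held 74.7% and the snoRNA entries 15.3%. Within the misc_RNA sum, RNase MRP alone held 54.6%, RNase P 16.6%, vault RNA 13.6%, the 213 entries of 7SL 10.9%, the 3 Y RNAs 3.31%, the 45 entries of 7SK 0.640% and telomerase RNA 0.405%. The 4 highest entries held 92.7% of it. RPKM divides by length, so RPKM was also multiplied by span in kilobases. For an unspliced RNA this gives RPM (reads scaled to the library alone) if the whole span was the length used, which could not be checked. The product was 1546 RPM for RNase MRP, 602 RPM for RNase P, 348 RPM for the sum of 7SL and 149 RPM for vault RNA. On this scale 7SL stood above vault RNA.

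The ribonuclease RNAs led the members in RPKM. How well the library recovered each RNA is not known. The order of the names in RPKM need not be their order of amount in testis. RNase MRP was at 5900 RPKM, the 24th highest of all entries (ENSCJAT00000051225, chr1:137427317-137427578, minus strand, span 262 bases). RNase P was at 1796 RPKM, the 46th highest (chr10:44719942-44720276, minus strand, 335 bases). The level of RNase MRP was 3.29 times that of RNase P per length. Neither lay inside a protein-coding entry. The 5′ end of the RNase P entry lay 205 bases from the start of PARP2, a poly(ADP-ribose) polymerase gene on the opposite strand, which was at 13.0 RPKM. In human the RNase P RNA gene and PARP2 likewise start close together and run apart. The nearest protein-coding entry to RNase MRP was C1H9orf100, 4355 bases away, at 1.31 RPKM. Coordinates are those of the table, and its genome build is not given in the sources used here.

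Vault RNA was the third highest member. Its single entry was at 1470 RPKM (chr2:37621733-37621833, plus strand), and with 101 bases it was the shortest of the 265. It lay 4362 bases downstream of ZMAT2, which was at 1.14 RPKM. Since RPKM is per length, the vault entry stood close to RNase P in RPKM. Its RPM was lower, 149 RPM against 602 RPM, if the whole span was the length used, which could not be checked.

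The 3 Y RNA entries were at 229, 72.4 and 55.9 RPKM and lay on chromosomes 4, 22 and 8. All were on the plus strand, had spans of 111 to 114 bases and overlapped no protein-coding entry. The highest exceeded the lowest by 4.10 times, and it held 64.1% of the Y RNA sum. The lowest (chr8:97259042-97259154) lay 15432 bases from its nearest protein-coding entry, A6ML76_CALJA at 9.77 RPKM. On the other side, 109075 bases away, was EZH2, a histone methyltransferase gene at 2.77 RPKM, which neighbours the Y RNA genes in human. Which of the known Y RNAs each entry is is not given in the table.

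Telomerase RNA, called TERC in other tables, was at 43.8 RPKM (chr17:9161751-9162187, plus strand) and had the longest span, 437 bases. It was the lowest of the names with 1 to 3 copies and still ranked 717th of all entries. Its nearest protein-coding entry was ACTRT3, an actin-related gene known from testis, 2225 bases away and at 21.9 RPKM. ACTRT3 is the neighbour of TERC in human as well.

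The 7SL entries had 1 copy far above the others. It was at 854 RPKM (ENSCJAT00000065019, chr10:74405646-74405942, minus strand, 297 bases) and held 72.7% of the summed 7SL RPKM. The second copy, on chromosome 8, was at 42.5 RPKM, so the first was 20.1 times as high. The next were at 24.8 RPKM on chromosome 22 and 22.3 RPKM on chromosome 5. The 212 copies other than the highest had a median of 0.502 RPKM. Copies at 10 RPKM or more were 6, and 53 (24.9%) reached 1 RPKM.

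The highest 7SL copy lay between SDCCAG1, 785 bases away and at 7.11 RPKM, and ARF6, a small GTPase gene 43416 bases away and at 2.77 RPKM. Another 7SL copy on the same strand lay 9793 bases from it (chr10:74415735-74416031) and was at 8.89 RPKM. It is named for its place, with its value known. These levels differ by 96.1 times at the same span of 297 bases. Copies of 7SL are close in sequence, and how the authors' counting placed reads that match several copies is not given, so the split of the 7SL sum between copies is uncertain. The same holds for 7SK. Whether such reads were left out is not known. The sums of 7SL and 7SK, and their order against the names with few copies, are therefore uncertain as well.

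The 45 entries of 7SK had no such leading copy. The highest was at 17.3 RPKM (chr1:191895380-191895731, 352 bases) and the second at 11.9 RPKM on chromosome 13, a ratio of 1.46. The summed 7SK RPKM was 69.2, of which the 5 highest entries held 61.0%, and the 3 after the second, named after their values were seen, were at 4.82, 4.45 and 3.80 RPKM. The 7SK median was 0.609 RPKM with quartiles of 0.265 and 0.945, and 11 of 45 entries (24.4%) reached 1 RPKM. The 7SL quartiles were 0.186 and 0.999 RPKM. The bulk of 7SL and 7SK entries thus lay in the same range, and the groups differed at the top, where 7SL reached 854 and 7SK 17.3 RPKM. Only copies with an entry are compared, so a higher 7SK copy without one would not be seen.

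**Figure D3:**
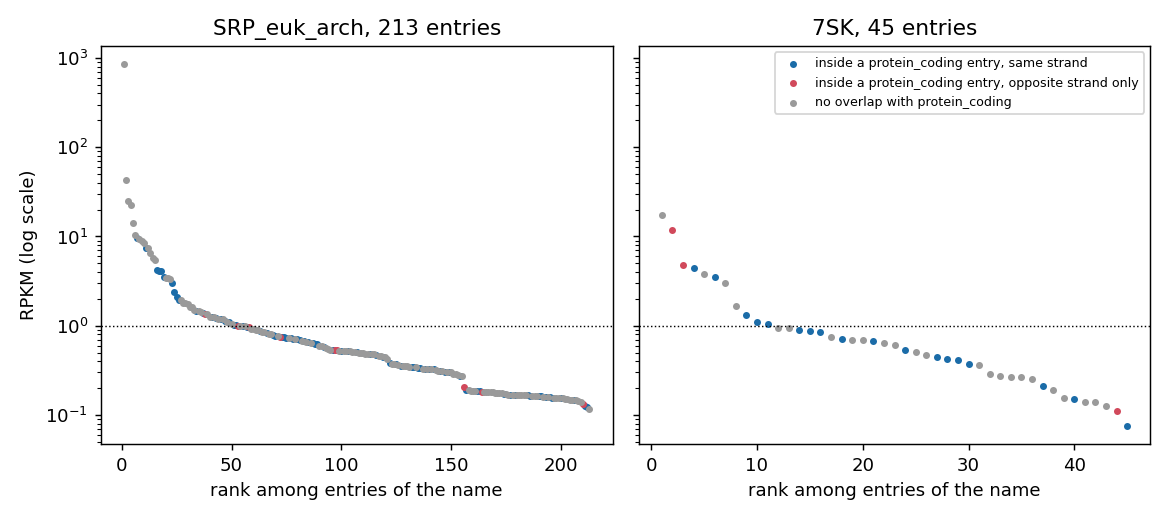
RPKM on a log axis of the 213 SRP_euk_arch entries (left) and 45 7SK entries (right), ranked from high to low and coloured by overlap with protein_coding entries. The left panel shows the single copy at 854 RPKM, and bands with medians of 0.510, 0.327 and 0.166 RPKM. Values vary within each band.

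The low 7SL entries were not spread evenly but fell into bands. A band of 58 entries ran from 0.118 to 0.205 RPKM, and no 7SL entry lay between 0.205 and 0.273 RPKM. The second band held 34 entries up to 0.386 RPKM and the third 32 entries from 0.422 to 0.593 RPKM. Their medians were 0.166, 0.327 and 0.510 RPKM, so the second was 1.97 times and the third 3.08 times the first. The bands were drawn where the gaps were seen in these data. The gap above the third band, from 0.593 to 0.618 RPKM, was narrower than those above the first and second. Whole reads would give a spacing of 1, 2 and 3, but this was not tested, the table holds no counts, and the reads behind a band are not known. Within the first band, entries of the same 297-base span ran from 0.141 to 0.191 RPKM, so a band is not 1 fixed value. The 3 bands held 124 entries, 58.2% of all 7SL entries. The median of the first band, 0.0492 RPM, was taken as 1 step. On that scale 1 RPKM on a 297-base entry was 6.04 steps, the second 7SL copy 255 steps and the highest 5160 steps. The 7SK entries did not keep to the same gap. Their 7 lowest in RPM ran from 0.0279 to 0.0460 RPM, and the next were at 0.0627, 0.0688, 0.0755 and 0.0764 RPM. These fall between 0.0607 and 0.0802 RPM, where no 7SL entry lay.

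The 3 lowest members were 7SK on chromosome 5 at 0.0750 RPKM, 7SK on chromosome 14 at 0.112 RPKM and 7SL on chromosome 10 at 0.118 RPKM. The members on either side of 1 RPKM were 7SL entries, one on chromosome 2 at 1.003 RPKM and one on chromosome 19 at 0.999 RPKM, a difference well within 1 step. The number of members at 1 RPKM or more thus depends on where the limit is set.

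Spans were narrow within each name. The median of the 265 entries was 297 bases, against 22510 bases for protein-coding entries, whose spans include introns. Of the 213 7SL entries, 86 spanned 297 and 37 spanned 296 bases, and the whole range was 268 to 312 bases. The 7SK spans ran from 245 to 372 bases with a median of 303. Spearman's rho between span and RPKM was -0.10 over the 213 7SL entries and 0.04 over the 45 7SK entries, given as a description of entries that share 1 library. The 14 7SL entries of 268 to 288 bases had a median of 0.676 RPKM, and the 123 entries of 296 and 297 bases had 0.496 RPKM. The 7SK medians were 0.713 RPKM for 7 entries of 245 to 278 bases, 0.280 RPKM for 16 of 284 to 303 bases and 0.772 RPKM for 22 of 305 to 372 bases, so they had no single direction with span. At 1 RPKM or more were 1 of the 16 and 8 of the 22.

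The members were scattered over the genome. Of 265, 257 lay on 23 placed chromosomes and 8 on unplaced or random sequences. Chromosome 5 held the most, 23, followed by chromosome 10 with 19, and chromosome X held 3. The 7SL entries were divided evenly between strands, with 107 on plus and 106 on minus, as were the 7SK entries with 22 and 23. Few copies lay close together: 22 of the 213 7SL entries had another within 100000 bases and 4 within 20000 bases, and no 7SK entry had one within 100000 bases. In these 11 pairs the higher copy was 1.13 to 96.1 times the lower one, with a median of 4.45 times. It was under 2 times in 3 pairs and over 10 times in 4. The pairs named next were chosen after their values were seen. On chromosome 14 one copy was at 14.0 RPKM and its neighbour 40047 bases away at 0.312 RPKM, whereas on chromosome X the copies of a pair were at 1.79 and 1.40 RPKM. On chromosome 18 a pair was at 0.183 and 0.161 RPKM, a difference within 1 step.

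Overlap with protein-coding entries was common among 7SL and 7SK and was not seen among the other names. In all, 106 misc_RNA entries (40.0%, exact interval 34.1% to 46.2%) shared at least 1 base with the span of a protein-coding entry, and all 106 lay wholly inside it. Over all entries that are not protein-coding the figure was 26.2%, and over those other than misc_RNA it was 23.5%. It was 60.0% for snoRNA, 30.7% for snRNA and 18.1% for pseudogene entries. By name it was 85 of 213 for 7SL, 21 of 45 for 7SK and 0 of 7 for the rest. The table gives no exons, so whether a member lies in an intron, an exon or a UTR could not be told.

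Strand was uneven. The library was directional per the labels, and 94 of the 106 overlapping members lay on the strand of a protein-coding entry, while 12 lay on the opposite strand only. This share of 88.7% (81.1% to 94.0%) compares with 95.8% of the overlapping snoRNA entries, 77.1% of snRNA and 70.6% of pseudogene entries. It was 3 of 5 for rRNA and 0 of 16 for transposon entries, and over all entries that are neither protein-coding nor misc_RNA it was 241 of 320, or 75.3%. Among 7SL it was 76 of 85 and among 7SK 18 of 21. Copies without any read are not listed, so the strands of all genomic copies are not known here. Reads from the unspliced transcript of a gene fall on its own strand, and their part in these values was not tested.

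Median levels of members inside and outside protein-coding entries were close over all names. The median was 0.597 RPKM for the 94 members on the same strand, 0.644 RPKM for the 12 on the opposite strand and 0.496 RPKM for the 159 without overlap. For 7SL alone the medians were 0.555, 0.532 and 0.480 RPKM, and for 7SK 0.693, 4.82 and 0.489 RPKM, of which the second rests on 3 entries. The share at 1 RPKM or more was 25.5% on the same strand and 27.0% without overlap. The groups differed at the top. Of the 15 members at 10 RPKM or more, 1 lay inside a protein-coding entry, against 27 of 56 between 1 and 10 RPKM and 22 of 65 under 0.2 RPKM. Of those 15, 7 are the entries of the names with 1 to 3 copies, and among 7SL and 7SK alone it was 1 of 8.

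The host entries were long and more often expressed than protein-coding entries in general. They were 138 transcripts of 107 genes, with a median span of 84991 bases against 22510 for all protein-coding entries. Their median level was 3.75 RPKM against 1.80 RPKM, and 82.6% against 60.6% reached 1 RPKM. Hosts are the genes that hold a listed member, and members are listed only with values above 0. Selection of hosts by length and by reads over the member therefore cannot be told apart from a trait of the hosts. GON4L and NSMCE2, named as the hosts with more than 1 member after their values were seen, each held 2 7SL copies, at 0.324 and 0.161 RPKM in GON4L and 0.667 and 0.147 RPKM in NSMCE2. The GON4L copies lay on opposite strands, and the higher one also overlapped a DAP3 entry. Along the host, 39 of the 94 same-strand members had their middle in the first, 27 in the middle and 28 in the last of 3 equal parts, counted from the 5′ end of the longest host entry.

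Member level and host level were at most weakly related over the same-strand members. Spearman's rho between the RPKM of a member and that of its highest overlapping protein-coding entry, on either strand, was -0.06 over these 94. It was -0.01 over the 76 7SL and -0.22 over the 18 7SK entries among them, and -0.36 over the 12 members on the opposite strand only. All share 1 library, and low 7SL values fall in the bands above. The hosts named next were chosen after their values were seen. Inside the highest host, KIF2A, a microtubule-depolymerising kinesin, the 7SL copy was at 0.358 RPKM and the host at 46.0 RPKM. The copy in UBE2R2, a ubiquitin-conjugating enzyme, was at 0.831 RPKM and the host at 45.7 RPKM. The copy in TRIM37, a ubiquitin ligase, was at 1.19 RPKM and the host at 39.3 RPKM. A 7SL copy at 0.532 RPKM lay in SMC1B, the cohesin subunit of meiosis, at 27.0 RPKM, and one at 0.654 RPKM lay in the ciliary transport gene IFT81 at 23.1 RPKM.

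A member exceeded its host in 16 of the 106 cases. The largest ratio was 82.1, for a 7SL copy at 7.50 RPKM on the strand of EPS8L2, an actin-regulating gene at 0.0913 RPKM. It amounted to 45.1 of the lowest steps. A 7SL copy at 1.36 RPKM lay opposite TMEM184A, a membrane protein gene at 0.132 RPKM, a ratio of 10.3. The 7SK copy at 11.9 RPKM, second of its name, lay opposite EPG5, an autophagy gene at 1.29 RPKM, a ratio of 9.22. A 7SL copy at 1.01 RPKM in ENPEP, an aminopeptidase gene at 0.212 RPKM, had a ratio of 4.78, and one at 2.08 RPKM in NTRK3, a neurotrophin receptor gene at 0.664 RPKM, had 3.14. Reads of overlapping entries on 1 strand may be shared between them. The RPKM of a member and of a spliced gene are each per own length, so a ratio above 1 says nothing about the number of reads.

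**Figure D4:**
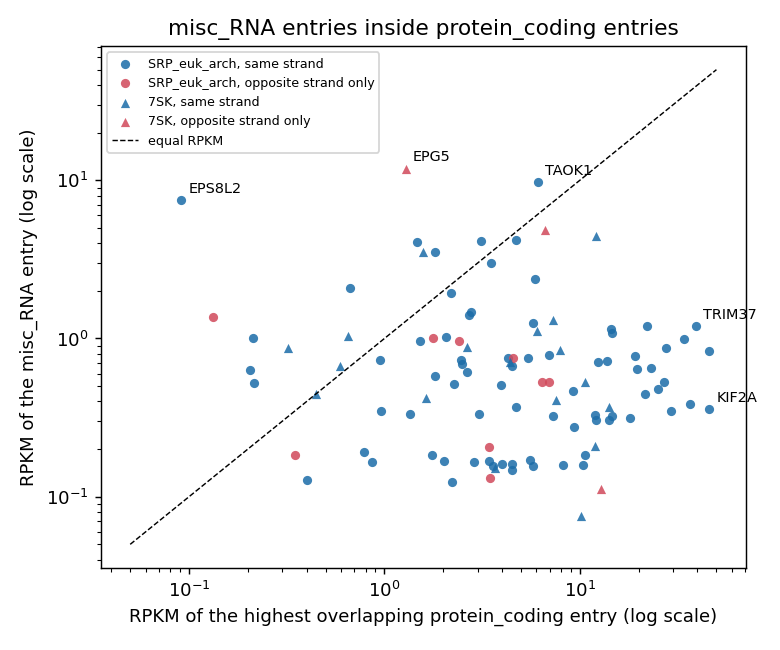
RPKM of the 106 misc_RNA entries inside protein_coding entries against that of the highest overlapping protein_coding entry, both on log axes. Circles are SRP_euk_arch and triangles 7SK, colours give the strand, and the dashed line marks equal RPKM. The 16 entries above the line include the copies in EPS8L2 and opposite EPG5, and the remaining 90 lie below it.

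The genes of proteins that act with these RNAs, and separately those of RNA polymerase III and its factors, were listed from knowledge of mammalian genes and read from the same table, with entries of 1 symbol summed. Of 38 genes listed for the ribonucleoproteins and the SRP receptor, 27 had a named entry, and 23 of these were at 1 RPKM or more, against 63.8% of all named protein-coding genes. Their median was 6.23 RPKM, against 2.44 RPKM for all. Of 26 listed RNA polymerase III genes, 18 had an entry, all at 1 RPKM or more as sums. With the highest entry of each symbol in place of the sum, 39 of the 45 genes of both kinds reached 1 RPKM, against 41 as sums, and RPP40 and GTF3C5 were those that did not.

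For 7SL, all 6 genes of the particle itself with an entry reached 1 RPKM. SRPRB, a subunit of the SRP receptor in the membrane, was at 8.54 RPKM. SRP14 at 64.9 RPKM and SRP9 at 55.1 RPKM, which bind the Alu part of 7SL as a pair, were far above the others. SRP54, which binds the signal peptide, was at 7.26 RPKM, SRP19 at 5.94 RPKM and SRP68 at 6.23 RPKM, and its partner SRP72 was the lowest at 1.002 RPKM. For 7SK, LARP7, which protects its 3′ end, was at 32.4 RPKM, the capping enzyme MEPCE at 15.3 RPKM and the P-TEFb kinase CDK9 at 15.6 RPKM. HEXIM1, the inhibitor of P-TEFb, was at 0.776 RPKM, under the limit.

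For RNase P and MRP, all 7 protein genes with an entry reached 1 RPKM as sums. They ran from RPP40, at 1.15 RPKM over 2 entries with the highest at 0.886 RPKM, to POP4 at 10.5 RPKM, with a median of 4.84 RPKM. RO60, the Ro protein that binds Y RNA, was at 12.2 RPKM and PUF60, another Y RNA binding protein, at 23.0 RPKM. SSB, also listed for Y RNA, had no named entry. Vault RNA was the third highest member at 1470 RPKM. MVP, the main protein of the vault, was at 0.943 RPKM, and PARP4 and TEP1, also listed for the vault, had no named entry. The levels of a short RNA and of a messenger RNA need not be comparable. Of the telomerase proteins, WRAP53, which takes the RNA to Cajal bodies, was at 2.47 RPKM and dyskerin (DKC1), which binds the RNA, at 1.65 RPKM, whereas NHP2 and NOP10, of the same complex, were at 0.617 and 0.614 RPKM. TERT had no named entry. The 18 RNA polymerase III genes with an entry had a median of 4.12 RPKM, from GTF3C5, at 1.10 RPKM over 3 entries with the highest at 0.409 RPKM, to GTF3A, the transcription factor of 5S rRNA genes, at 66.4 RPKM. Whole testis mixes germ and somatic cells, so more cells of a type and more RNA per cell cannot be told apart in any of these levels.

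**Figure D5:**
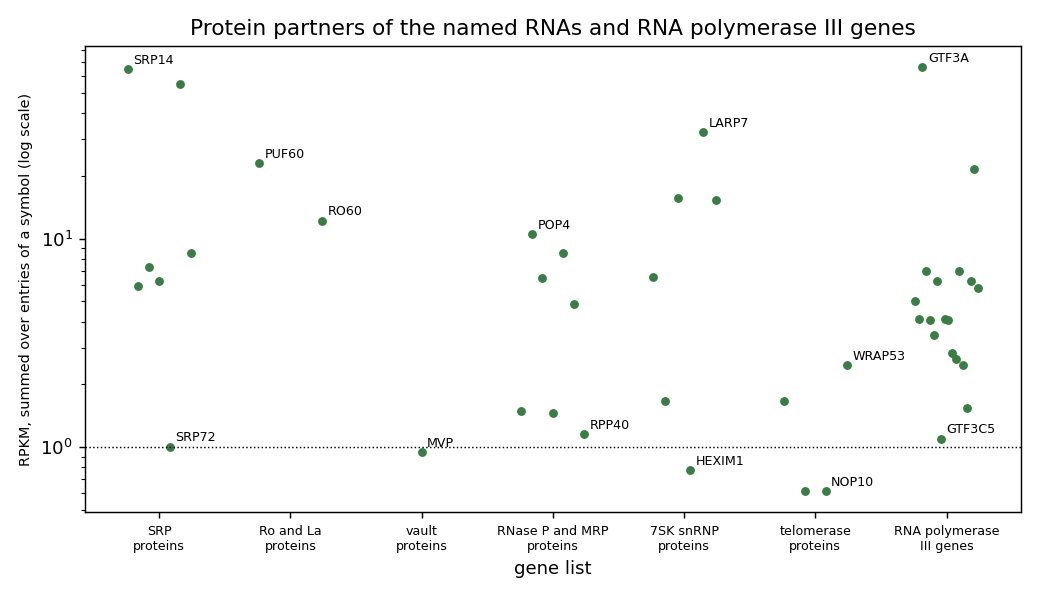
RPKM of the 45 genes with an entry, on a log axis, by gene list, with the highest and lowest gene of each list named and 1 RPKM dotted. SRP14 and GTF3A are near 65 RPKM, and MVP, HEXIM1, NHP2 and NOP10 lie under the line.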

How the data were processed

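Per the labels' protocols, total RNA was isolated with the miRNeasy kit and libraries followed a directional mRNA protocol with a TruSeq small RNA kit. Bowtie, TopHat and Cufflinks are named, with no version, in the submitters' processing notes. The deposited values are RPKM per transcript, with no counts. Build, annotation release, treatment of reads with several matches and the way the 2 replicates were combined are not stated there.

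Members, gene lists and limits were chosen with earlier results of these data known. Spans are end minus start plus 1. Entries overlap where spans share 1 base or more. The host value is the highest overlapping protein_coding RPKM on either strand, also for same-strand members. LOC names and unnamed entries took symbols from the RefSeq (calJac240_pri, names only) and Ensembl tables. Named members were the 12 highest, all copies of names with 3 or fewer, the 3 lowest, those nearest 1 RPKM and the 5 highest over their host, and others are marked in the text as chosen with their values known. Of each partner list the highest, lowest and those under 1 RPKM are named, with further ones chosen after their values were seen. With 1 column, no test was run. Intervals for shares are exact (Clopper-Pearson, 95%), and the overlap search was tested on simulated spans. No sequences of these RNAs were at hand. Computation used pandas 2.3.3 and numpy 2.4.6 under Python 3.11.15, with scipy 1.17.1 for intervals and matplotlib 3.10.9 for plots.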

Additional observations from a re-analysis of the deposited data

How the results depend on the processing

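No paired analysis was possible because the RNA-seq group has 1 column of values, which also leaves no replicate to leave out. The share of misc_RNA entries at the limit was 26.8% at 1 RPKM, 99.6% at 0.1 RPKM and 9.06% at 5 RPKM. The median of 0.518 RPKM became 1174 RPKM with 1 summed value per common name, since 7 names then weigh equally. The share of summed RPKM, 0.619%, was 0.282% without RNase MRP, 0.0530% for RPKM multiplied by span, where protein-coding spans include introns, and 6.24% without snRNA and snoRNA entries, an alternative chosen after seeing the data. Partner and RNA polymerase III genes at the limit were 41 at 1 RPKM and 23 at 5 RPKM, and 39 at 1 RPKM with the highest entry in place of the sum, also chosen after seeing the data. The other 12 of 19 alternatives stayed within the interval of the median or within 1.5 times, among them the overlap count of 106, which was 94 on the same strand only and 110 with entries within 1000 bases. The lowest 3 bands of the values held 58.2% of 7SL entries, and with no counts in the table the depth behind them is unknown.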
